A study of Rattus norvegicus with 50 samples.

Results

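The subject of this report is the difference in liver gene expression between 7 days and 24 h after traumatic brain injury in rats given anakinra, the recombinant form of the natural interleukin-1 receptor antagonist. Its arrays were taken by label, the 5 of anakinra at 7 days and the 5 of anakinra at 24 h, which are 10 of the 50 arrays of the series. The series measured liver RNA of male Sprague Dawley rats about 3 months old on a whole-transcript rat expression array, with 1 animal per array and 10 groups of 5. The brain injury was a controlled cortical impact, in which a piston strikes the exposed cortex. Groups of injured rats received anakinra at 100 mg/kg, erythropoietin (EPO) at 2500 IU/kg or saline vehicle, and were sampled at 24 h, 72 h and 7 days. The sham group consisted of animals with no injury, and its labels give neither a time point nor a vehicle. RNA came from punches of the median liver lobe. Neither the number of doses nor the time of day at which livers were taken is given in the sources used here. Time after injury and time of collection therefore cannot be told apart in the values below.

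Interleukin-1 signals through a receptor made of Il1r1 and Il1rap, and in the liver it acts together with interleukin-6 to raise the acute phase proteins that hepatocytes secrete into plasma. Anakinra occupies Il1r1 without starting a signal. The liver also runs a circadian clock, in which Bmal1 or its paralog Bmal2 pairs with Clock or Npas2 on E-box sequences, the Per and Cry proteins repress that pair, and the PAR bZIP factors Dbp, Tef and Hlf carry the rhythm to output genes through D-box sequences.

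The 10 arrays were alike in scale and overlapped in the mean levels of cell markers. Array medians lay between 6.68 and 6.74 on the log2 intensity scale and array SDs between 2.07 and 2.14. Albumin (Alb) averaged 14.00 at 7 days and 13.98 at 24 h, and transthyretin (Ttr) averaged 13.61 at 7 days and 13.60 at 24 h. The mean level of 21 hepatocyte markers ranged from 12.63 to 12.73 across the 7-day arrays and from 12.60 to 12.79 across the 24 h arrays. For 27 Kupffer cell and macrophage markers the ranges were 8.18 to 8.36 at 7 days and 8.14 to 8.53 at 24 h, and for 23 neutrophil markers 6.17 to 6.56 at 7 days and 6.21 to 6.33 at 24 h. The ranges of the 2 groups overlapped for each of these 3 marker sets. The tissue was bulk liver, so fewer cells of a type and less RNA per cell cannot be told apart.

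Of 14506 genes tested between 7 days and 24 h, 6 passed at an adjusted p under 0.05, which is 0.0414% of those tested. 5 were higher at 7 days (0.0345% of genes), namely Bmal2, Cep70, Aqp8, Adamts9 and Pygb, and 1 was lower (0.00689%), namely Tef. The test was limma's moderated test on log2 values with Benjamini-Hochberg adjustment over all genes, and the fit covered all 50 arrays. Without adjustment 1145 genes, or 7.89%, had a p under 0.05, of which 632 (4.36%) were higher and 513 (3.54%) lower. With arrays centred on their median 2 genes were higher and 0 lower, and with a further quantile normalization 4 were higher and 3 lower. The median difference over all genes was -0.02, with 42.9% of genes above 0 and 57.1% below.

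**Figure D1:**
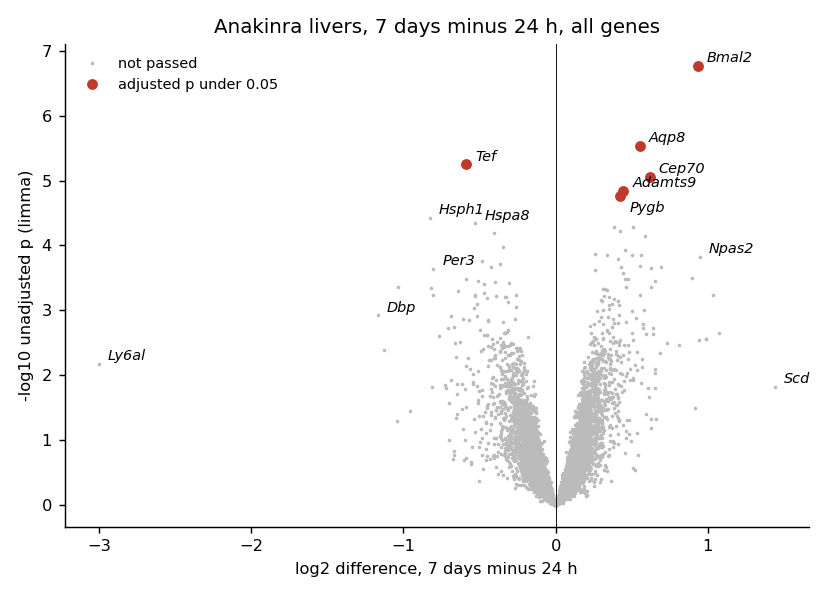
Each point is 1 of 14506 genes, with the log2 difference between 7 days and 24 h after injury in anakinra livers on the x axis and -log10 of the unadjusted p on the y axis. The 6 genes that passed had differences between -0.59 and 0.93, while genes with larger differences, such as Scd at 1.44 and Dbp at -1.17, did not pass.

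As the plot of all genes shows, the genes that passed were not those with the largest differences. The difference of largest size belonged to Ly6al, at -3.003 (SE 1.06) with an adjusted p of 0.368. Ly6al was singled out after its values were seen.

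The 2 clock transcription factors among the genes that passed moved in opposite directions. The start region of Tef is shown because Tef was the only lower gene among the 6 and because its window holds an E-box. The start region of Aqp8 is shown because it is the other window among the 6 with that motif, which it holds at 2 positions. Each sequence runs from 250 bases before to 50 bases after the RefSeq gene start on assembly GRCr8, 5′ to 3′ on the gene's own strand, with the E-box in capitals.
Tef, chr7:115206577-115206876, plus strand: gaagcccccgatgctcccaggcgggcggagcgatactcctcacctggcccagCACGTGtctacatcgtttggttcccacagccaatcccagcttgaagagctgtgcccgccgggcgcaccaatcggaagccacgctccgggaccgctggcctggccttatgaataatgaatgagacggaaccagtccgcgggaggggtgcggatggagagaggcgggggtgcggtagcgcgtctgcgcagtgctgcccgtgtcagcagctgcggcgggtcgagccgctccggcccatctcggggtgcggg
Aqp8, chr1:187424193-187424492, plus strand: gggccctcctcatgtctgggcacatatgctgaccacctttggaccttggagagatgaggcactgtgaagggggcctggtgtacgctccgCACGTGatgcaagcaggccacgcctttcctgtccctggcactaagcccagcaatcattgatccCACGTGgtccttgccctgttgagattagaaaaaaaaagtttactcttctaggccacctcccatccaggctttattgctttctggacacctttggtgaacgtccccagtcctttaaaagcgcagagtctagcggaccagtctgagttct
The motif begins at position -198 from the start in Tef and at -161 and -98 in Aqp8. The letters searched for were CACGTG, which reads the same on both strands, and 6.42% of 33469 rat windows of the same length hold it. The D-box letters TTANNTAA, found in 5.84% of windows, were in 0 of the 6. On the list of clock and clock output genes, 3 of 18 windows held the E-box, Tef among them, and 1 held the D-box. The windows of Npas2, Dbp, Per3, Bmal1 and Nr1d1 held neither. A match is a description of these letters and says nothing of binding.

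Bmal2, the paralog of Bmal1, had log2 levels of 7.30, 7.47, 7.86, 7.49 and 7.99 in the 7-day livers, against 6.76, 6.68, 6.64, 6.62 and 6.73 in the 24 h livers. Every 7-day liver stood above every 24 h liver, as was so for 1.09% of all genes, and the 24 h values lay within a much narrower range. The difference was 0.93 (SE 0.152), or 1.91-fold, with an adjusted p of 0.00246 in limma. At 72 h the mean was 7.07 and in sham livers 7.01, between the means of 7.62 ± 0.29 at 7 days and 6.69 ± 0.06 at 24 h (SD, n = 5 each). Bmal2 passed in all 18 other settings tried, 10 of which left out 1 of the 10 arrays.

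Tef read 7.74, 7.83, 7.78, 7.85 and 8.05 at 7 days, against 8.61, 8.47, 8.31, 8.60 and 8.21 at 24 h. The groups did not overlap. Tef fell by 0.59 on the log2 scale (SE 0.115), with a 95% interval from -0.82 to -0.36 and an adjusted p of 0.0272 in limma. The 5 sham livers, at 7.82 to 8.05, were at the level of the 7-day livers. The call was lost without 7-day array 1, 2, 3 or 4, without 24 h array 1, 2 or 4, and with arrays centred on their median. It was also lost with a replicate block, which adds the replicate number to the limma fit (adjusted p 0.0961).

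Aqp8, a water channel of the hepatocyte, had levels of 12.26, 12.08, 12.39, 12.29 and 12.42 at 7 days, against 11.76, 11.65, 11.70, 11.73 and 11.83 at 24 h. The lowest 7-day liver stood above the highest 24 h liver. Aqp8 rose by 0.55 (SE 0.104), a 1.47-fold difference with an adjusted p of 0.0211 in limma. Sham livers lay between 11.87 and 12.17. The call was lost without 7-day array 1, 3, 4 or 5 and without 24 h array 2, 3 or 4.

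Pygb, the glycogen phosphorylase form named for brain, measured 7.57, 7.77, 7.70, 7.68 and 7.59 at 7 days, against 7.43, 6.96, 7.16, 7.32 and 7.32 at 24 h. The groups did not overlap, and 24 h array 2 was the lowest. The rise was 0.42 (SE 0.088), or 1.34-fold, with an adjusted p of 0.0415 in limma. Pygb passed in 1 of the 10 fits that left out an array, the one without 24 h array 1. It did not pass with arrays centred, in a fit of the 2 groups alone or with the replicate block (0.188).

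Cep70, a centrosomal protein, read 7.04, 6.67, 6.86, 6.85 and 6.66 at 7 days, against 6.24, 6.48, 5.99, 6.13 and 6.15 at 24 h. The groups did not overlap. The rise was 0.62 (SE 0.124), or 1.53-fold, with an adjusted p of 0.0319 in limma. The call was lost without 7-day array 1, 3 or 4, without 24 h array 3, 4 or 5, and under both other scalings. It was lost with the replicate block as well (0.0928).

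Adamts9, a secreted metalloprotease that cuts proteoglycans, had 7.23, 7.24, 7.28, 7.09 and 7.21 at 7 days, against 7.05, 6.77, 6.61, 6.59 and 6.81 at 24 h. The lowest 7-day value was just above the highest 24 h value. The rise was 0.45 (SE 0.092), or 1.36-fold, with an adjusted p of 0.0412 in limma. Adamts9 passed in 1 of the 10 fits that left out an array, again the one without 24 h array 1. It did not pass with arrays centred, in a fit of the 2 groups alone or with the replicate block (0.0998).

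**Figure D2:**
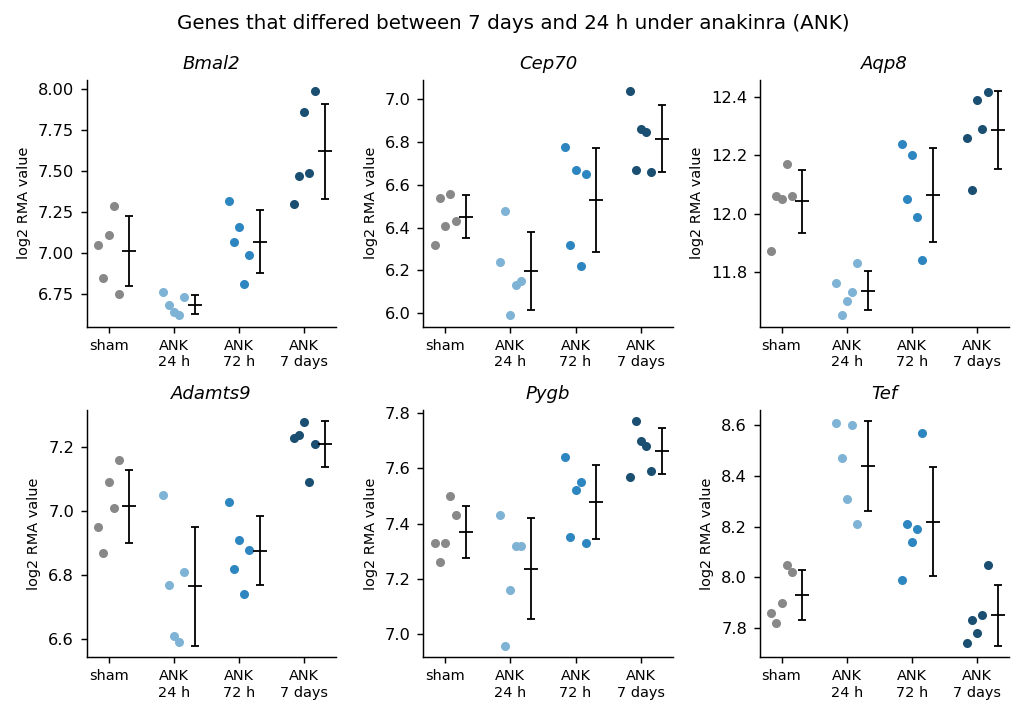
Log2 expression of the 6 genes that passed is plotted for each liver of the sham group and of the anakinra groups at 24 h, 72 h and 7 days, with the mean and SD of 5 livers per group. The 7-day livers lie above all 24 h livers for 5 genes and below them for Tef.

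The plot of these 6 genes puts the 72 h livers between. Cep70 read 6.78, 6.32, 6.67, 6.22 and 6.65 at 72 h, a range that reached from within the 24 h values to within the 7-day values. No gene passed between 72 h and 24 h (0% of genes tested) in the limma fit, where 572 genes had an unadjusted p under 0.05 and 35 passed with array weights. The smallest p there belonged to Derl3, at -1.03 with an adjusted p of 0.298. No gene passed between 7 days and 72 h either (0%), with 909 genes with an unadjusted p under 0.05 and 10 passing with array weights. Unc13b, with 0.49, Dnm2, with 0.44, and Osbp, with 0.34, had the smallest p in that comparison, each at an adjusted p of 0.314.

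The same span of time in other injured rats is given beside these values. Vehicle livers had 36 genes past the threshold between 7 days and 24 h (0.248%) and EPO livers had 206 (1.42%). In vehicle livers Bmal2 differed by 0.66 (adjusted p 0.0394), Tef by -0.58 (0.0142) and Adamts9 by 0.57 (0.00208), and all 3 passed there too. Aqp8 at 0.39 (0.107), Cep70 at 0.32 (0.411) and Pygb at 0.12 (0.752) did not pass in vehicle livers. In EPO livers Adamts9 passed at 0.51 (0.00053), while Bmal2 at 0.41 (0.174) and Aqp8 at 0.325 (0.102) did not.

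Whether the change over time itself differed between drug and vehicle was tested as an interaction in the same limma fit. No gene passed (0%), and 488 genes had an unadjusted p under 0.05. For Tef the anakinra change minus the vehicle change was -0.01, with a 95% interval from -0.34 to 0.32. The interval for Bmal2 was -0.16 to 0.70, and for Pygb it was 0.05 to 0.55 with an unadjusted p of 0.0204 and an adjusted p of 0.999. Myadm at -0.57 and Ccnjl at -0.53, both with an adjusted p of 0.46, and Vom2r16 at -0.87, with 0.817, had the smallest p. Myadm passed, at an adjusted p of 0.041, when anakinra 7-day array 2 was left out.

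**Figure D3:**
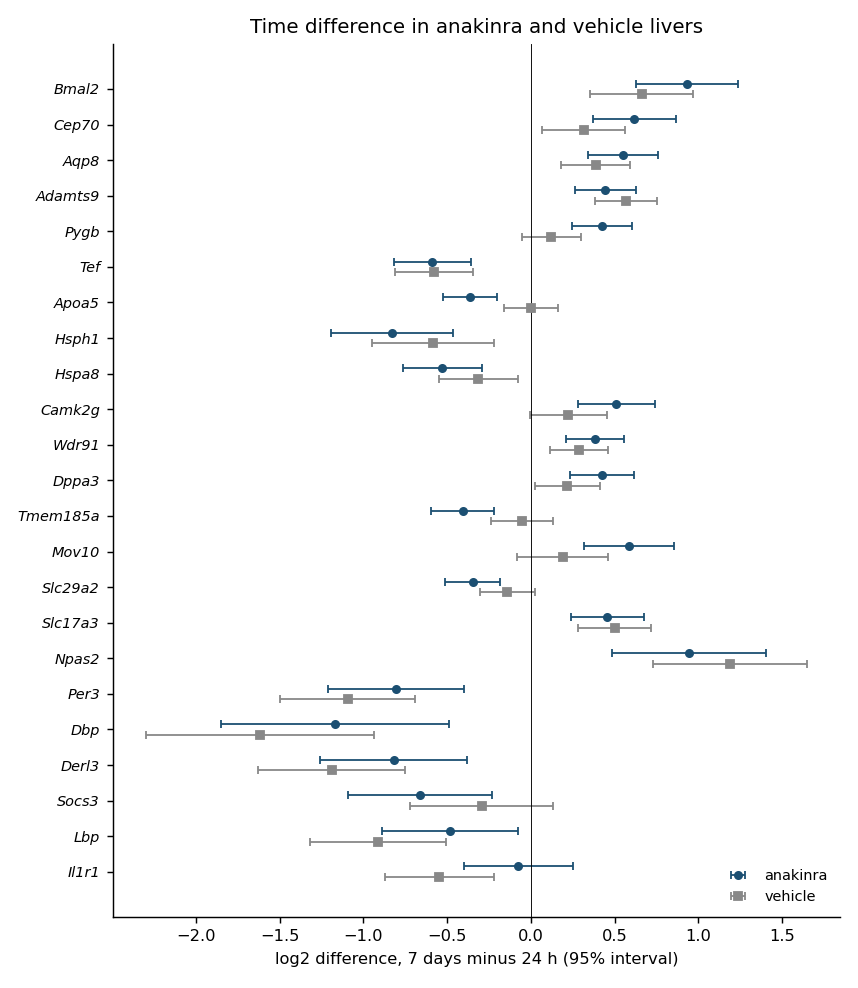
The log2 difference between 7 days and 24 h is drawn with its 95% interval for 23 genes in anakinra livers (circles) and vehicle livers (squares). For Tef the anakinra value is -0.59 and the vehicle value -0.58, and for Bmal2 they are 0.93 and 0.66.

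The 10 genes next in order of p had adjusted p-values from 0.068 to 0.101 in limma and included 2 heat shock chaperones. Apoa5, an apolipoprotein that bears on plasma triglyceride, read 11.17, 11.36, 11.24, 11.26 and 11.61 at 7 days, against 11.75, 11.88, 11.63, 11.62 and 11.58 at 24 h. Only 7-day array 5 reached into the 24 h range, and the difference was -0.36 (adjusted p 0.068). Over the same span Apoa5 differed by 0.00 in vehicle livers and passed in EPO livers at -0.33 (adjusted p 0.018). Of the remaining 7, Camk2g (0.51), Wdr91 (0.38), Dppa3 (0.43), the RNA helicase Mov10 (0.59) and the organic anion carrier Slc17a3 (0.46) had positive differences. Tmem185a (-0.41) and the nucleoside carrier Slc29a2 (-0.35) had negative ones. Each of the 10 passed with array weights.

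Other members of the clock machinery had larger differences than Tef and larger spread. The list of clock and clock output genes does not hold Bmal2. Of its 20 measured genes Tef alone passed in limma, and the median difference was -0.13. With an unadjusted p under 0.05, 5 (25%) were lower and 3 (15%) higher, against 3.54% and 4.36% of all genes. The median was -0.01 without 24 h array 5, -0.06 without 24 h array 1, -0.09 without 7-day array 2 and -0.21 without 24 h array 4. The same 20 genes had a median of -0.02 in vehicle livers.

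Npas2, the partner of Bmal1 and Bmal2, read 9.80, 9.60, 9.84, 9.89 and 9.86 at 7 days, against 9.28, 8.68, 8.76, 8.54 and 9.01 at 24 h. The groups did not overlap. Sham livers, at 9.22 to 9.44, lay below all 7-day livers and reached into the 24 h range, which ended at 9.28. The difference was 0.95 (SE 0.228), or 1.93-fold, with an adjusted p of 0.102 in limma. Npas2 passed with array weights (0.00694), in a fit of the 2 groups alone (0.00583) and with the replicate block (0.0169). Without the 5 arrays of lowest SD it passed at 0.05 after rounding. In vehicle livers Npas2 passed, at 1.19 with an adjusted p of 0.00875.

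Dbp, a PAR bZIP paralog of Tef, had 7.38, 7.58, 7.37, 7.62 and 7.66 at 7 days, against 7.94, 9.30, 8.48, 9.73 and 8.0 at 24 h. All 24 h livers stood above all 7-day livers, arrays 2 and 4 by the most. The difference was -1.17 (SE 0.338, adjusted p 0.215 in limma, 0.0453 with array weights). In vehicle livers Dbp passed at -1.62 (adjusted p 0.0238).

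Per3, a clock repressor, also had its highest 24 h levels in arrays 4 and 2, with 6.35, 6.26, 6.27, 6.70 and 6.24 at 7 days, against 6.93, 7.56, 7.01, 7.71 and 6.64 at 24 h. The highest 7-day liver, array 4, lay above the lowest 24 h liver, array 5. The difference was -0.81 (SE 0.201, adjusted p 0.112 in limma, 0.0269 with array weights). In vehicle livers Per3 passed at -1.09 (adjusted p 0.00583).

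Bmal1 read 9.48, 9.29, 9.31, 9.13 and 9.32 at 7 days, against 9.23, 8.63, 8.95, 8.54 and 9.25 at 24 h, with arrays 2 and 4 the lowest. Nr1d1, a nuclear receptor that represses Bmal1, read 8.05, 7.34, 8.56, 9.37 and 8.29 at 7 days, against 8.36, 9.92, 9.37, 10.46 and 6.84 at 24 h, and here arrays 2 and 4 were the highest. At 72 h array 5 stood apart in the same sense, at 9.99 for Dbp, 7.76 for Per3, 10.68 for Nr1d1 and 8.14 for Bmal1. Clock transcripts thus differed between livers of a group as well as between groups. The differences between 7 days and 24 h were 0.39 for Bmal1 (adjusted p 0.574), -0.67 for Nr1d1 (0.8), -0.46 for Per1 and -0.07 for Per2, and none passed in limma.

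**Figure D4:**
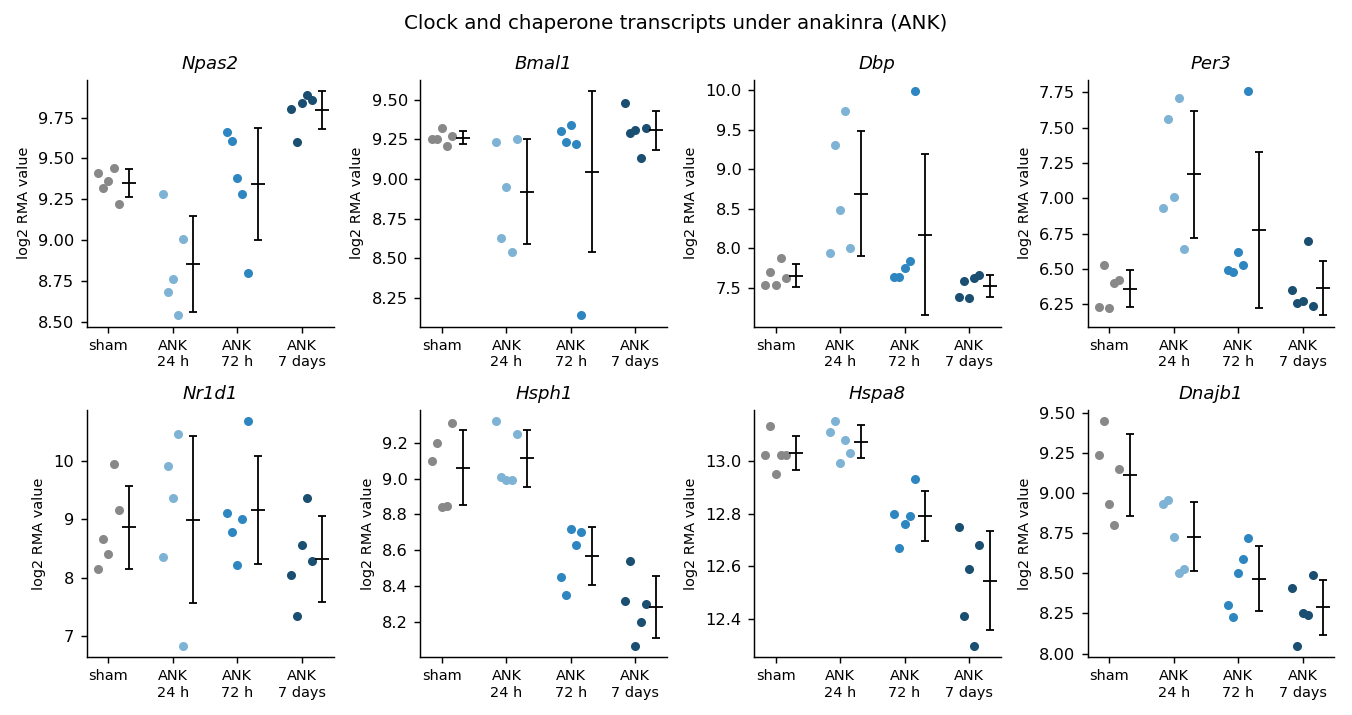
Log2 expression of 5 clock genes and 3 heat shock chaperones is plotted for each sham liver and each anakinra liver at 24 h, 72 h and 7 days, with the mean and SD of 5 livers per group. Dbp, Per3 and Nr1d1 spread widely at 24 h and have 1 high liver at 72 h, while Hsph1 and Hspa8 are lower in all 7-day livers than in all 24 h and all sham livers.

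The chaperones Hsph1 and Hspa8 were 2 of the 10 genes next in order of p. Their start regions are printed because Hsph1 and Hspa8 had the smallest p of the heat shock list and both windows hold the letters GAANNTTC, given in capitals as a heat shock element. In Hsph1 the E-box is in capitals as well.
Hsph1, chr12:10427118-10427417, plus strand: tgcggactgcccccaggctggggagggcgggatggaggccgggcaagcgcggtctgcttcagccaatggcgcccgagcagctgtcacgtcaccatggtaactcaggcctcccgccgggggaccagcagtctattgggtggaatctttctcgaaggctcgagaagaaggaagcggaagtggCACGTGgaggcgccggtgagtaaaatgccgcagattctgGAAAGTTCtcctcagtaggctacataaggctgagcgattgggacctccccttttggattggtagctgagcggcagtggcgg
Hspa8, chr8:50080264-50080563, plus strand: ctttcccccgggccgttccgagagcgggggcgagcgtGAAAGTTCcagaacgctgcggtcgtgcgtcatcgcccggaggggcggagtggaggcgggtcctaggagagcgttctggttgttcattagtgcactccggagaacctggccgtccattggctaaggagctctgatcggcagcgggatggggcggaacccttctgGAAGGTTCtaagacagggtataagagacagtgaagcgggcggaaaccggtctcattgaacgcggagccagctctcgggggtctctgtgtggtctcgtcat
The element begins at -31 in Hsph1 and at -213 and -50 in Hspa8. It reads the same on both strands, stood in 15 of the 34 heat shock genes with a window in the RefSeq table, and is in 8.59% of all windows.

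Hsph1, a large chaperone of the Hsp110 family, had 8.32, 8.54, 8.07, 8.20 and 8.30 at 7 days, against 9.32, 9.01, 8.99, 8.99 and 9.25 at 24 h. All 7-day livers were below all 24 h livers and below all sham livers, which read 9.10, 9.20, 8.84, 8.85 and 9.31. The difference was -0.83 (SE 0.181), or 1.77-fold, with an adjusted p of 0.068 in limma. Hsph1 passed with array weights (0.0027), in a fit of the 2 groups alone (0.00583) and without the 5 arrays of lowest SD (0.011). It also passed with the replicate block (0.0142) and with quantile normalization (0.026). It did not pass with arrays centred on their median (0.148) nor in any of the 10 fits that left out an array (0.0576 to 0.205).

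Hspa8, the constitutive Hsc70 chaperone, read 12.75, 12.41, 12.59, 12.30 and 12.68 at 7 days, against 13.11, 13.15, 12.99, 13.08 and 13.03 at 24 h. The groups did not overlap. The difference was -0.53 (SE 0.117, adjusted p 0.0682 in limma). Hspa8 passed with array weights (0.00279), without the 5 arrays of lowest SD (0.00715) and in a fit of the 2 groups alone (0.0377). 8 probes carry the symbol Hspa8, and the one with the highest mean was used.

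Of 41 heat shock proteins and co-chaperones measured, 0 passed in limma, 9 (22%) were lower and 0 higher with an unadjusted p under 0.05, against 3.54% and 4.36% of all genes. In 8 of the 41 all 7-day livers lay below all 24 h livers, against 1.13% of all genes. The median difference was -0.11 in anakinra livers and -0.16 in vehicle livers. Dnajb1, a co-chaperone of Hsp70, read 8.41, 8.05, 8.25, 8.24 and 8.49 at 7 days, against 8.93, 8.96, 8.73, 8.50 and 8.53 at 24 h, with a difference of -0.44 (adjusted p 0.353). Dnajb1 was picked after its values were seen.

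Endoplasmic reticulum chaperones had the largest share of members lower by unadjusted p among the 38 lists. Of 38 genes, 0 passed in limma. With an unadjusted p under 0.05, 12 (31.6%) were lower and 0 higher, against 3.54% and 4.36% of all genes. 34 lay below 0, as did 57.1% of all genes, and the median was -0.17, against -0.22 in vehicle livers. Without 7-day array 4 the count lower was 7 and the median -0.09. Derl3, a factor of endoplasmic reticulum protein disposal, read 6.36, 7.97, 7.06, 6.65 and 6.85 at 7 days, against 7.77, 7.23, 7.98, 7.64 and 8.38 at 24 h. 7-day array 2 alone lay inside the 24 h range. The difference was -0.82 (SE 0.217, adjusted p 0.145 in limma), and without 7-day array 2 it was -1.07 and passed at 0.0224. Derl3 passed over the same span in vehicle livers, at -1.19 (adjusted p 0.00583), and in EPO livers, at -1.22 (0.000516).

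Herpud1, a membrane protein of the same disposal route chosen after its values were seen, had 9.27, 9.52, 9.59, 9.15 and 9.45 at 7 days, against 10.43, 10.50, 10.26, 10.34 and 9.47 at 24 h. 24 h array 5 was the one liver of that group within the 7-day range. The difference was -0.80 (adjusted p 0.15 in limma).

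**Figure D5:**
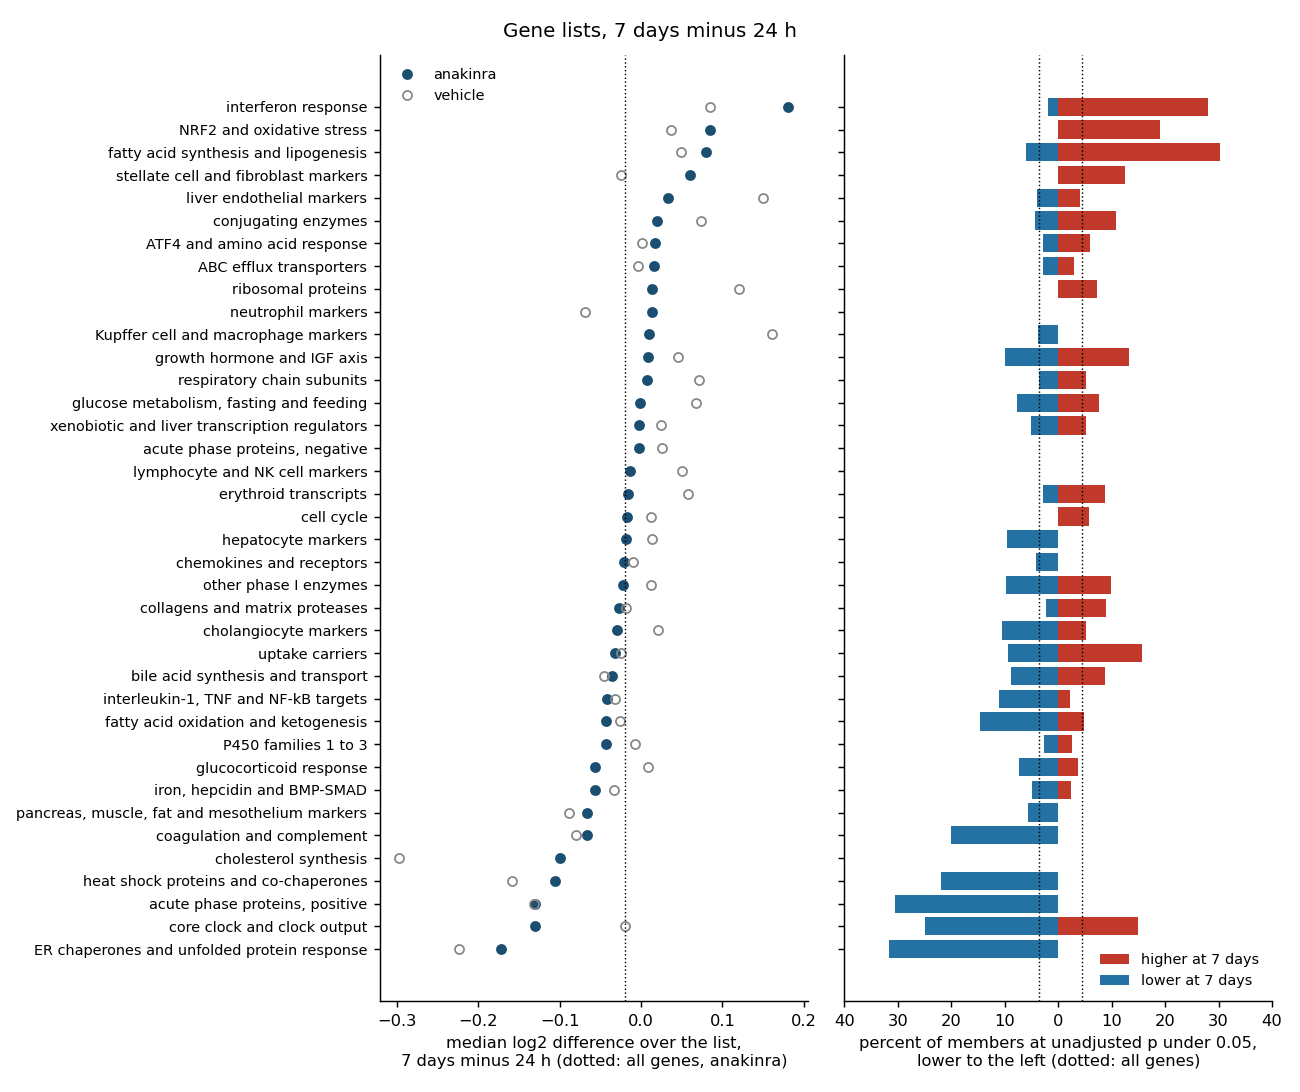
For 38 gene lists, the left panel gives the median log2 difference between 7 days and 24 h (filled, anakinra livers; open, vehicle livers) and the right panel the percent of measured members higher or lower with an unadjusted p under 0.05 in anakinra livers. The dotted lines give all genes tested. Endoplasmic reticulum chaperones (31.6% lower), positive acute phase proteins (30.6% lower), fatty acid synthesis (30.3% higher) and interferon response (28% higher) have the largest shares in 1 direction.

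In the plot of the lists, passed genes appear in 2 of the 38: Tef in the clock list and Adamts9 among the matrix proteases. The other lists are described by counts and medians, which carry no test of the list.

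The receptor that anakinra occupies did not pass between the 2 times. Il1r1 read 9.26, 9.28, 9.12, 9.34 and 9.41 at 7 days, against 9.14, 8.95, 9.41, 9.84 and 9.44 at 24 h. The groups overlapped, and both stood above every sham liver, at 8.58 to 8.75. The difference between 7 days and 24 h was -0.08, with a 95% interval from -0.40 to 0.25 and an adjusted p of 0.95 in limma. Against sham, Il1r1 rose by 0.62 at 7 days (adjusted p 0.0312) and by 0.69 at 24 h (0.0472), calls that held in 2 and 1 of 10 fits with an array left out.

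The rest of the interleukin-1 system gave no call. Differences were -0.26 for the co-receptor Il1rap (adjusted p 0.539), -0.15 for the natural antagonist Il1rn, 0.40 for Il1a (0.558), 0.22 for Il1b, 0.08 for Il18 and 0.04 for the decoy receptor Il1r2. The adaptor Myd88 had -0.35 (0.353) and the NF-kB inhibitor Nfkbia 0.13. With array weights Myd88 passed (0.0436). Of 45 interleukin-1, TNF and NF-kB targets, 0 passed in limma, and the median was -0.04. With an unadjusted p under 0.05, 5 (11.1%) were lower and 1 (2.22%) higher, against 3.54% and 4.36% of all genes.

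Positive acute phase proteins stood lower at 7 days in 39 of 49 genes by sign, as did 57.1% of all genes. 0 passed in limma. With an unadjusted p under 0.05, 15 (30.6%) were lower and 0 higher, against 3.54% and 4.36% of all genes. The median was -0.13 in anakinra and -0.13 in vehicle livers. The 15 included the signalling members Socs3, Stat3, Il6r and Il6st beside secreted proteins such as Serping1 and Lbp, and Il6r and Il6st are examples chosen after their values were seen. Socs3, the feedback inhibitor of interleukin-6 signalling, read 7.58, 7.30, 7.16, 7.29 and 8.06 at 7 days, against 8.38, 7.50, 8.43, 8.45 and 7.95 at 24 h. The groups overlapped through 7-day arrays 1 and 5 and 24 h arrays 2 and 5, and the difference was -0.66 (adjusted p 0.302). Serping1, the C1 inhibitor, chosen after its values were seen, had 12.61, 12.70, 12.43, 12.63 and 12.75 at 7 days, against 12.94, 12.85, 12.94, 12.82 and 12.87 at 24 h, without overlap and with a difference of -0.26 (0.15).

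Lbp, the lipopolysaccharide binding protein, had 11.01, 12.41, 11.60, 11.51 and 11.31 at 7 days, against 11.64, 11.85, 12.08, 12.18 and 12.51 at 24 h. 4 of the 5 7-day livers were below all 24 h livers, and 7-day array 2 was above 4 of them. The difference was -0.48 (SE 0.202, adjusted p 0.497 in limma), and in vehicle livers Lbp passed at -0.91 (0.0296). The same array was the highest 7-day liver for Stat3, at 11.29 against 10.54 to 10.74 in the others, for Orm1, at 12.72 against 11.84 to 12.03, and for Lcn2, at 10.21 against 6.81 to 7.52. Without it, 17 acute phase genes were lower with an unadjusted p under 0.05 and the median was -0.17, the array having been singled out after its values were seen. Over the other settings that count ran from 10 without 24 h array 5 to 19 with array weights. It was 11 without 24 h array 4 and with arrays centred on their median. Without 7-day array 3 it was 12 and the median -0.09.

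A2m, the broad protease inhibitor of the rat acute phase, read 8.57, 8.13, 8.26, 8.70 and 8.38 at 7 days, against 9.57, 8.43, 9.24, 9.09 and 10.94 at 24 h. 24 h array 5 was the highest and array 2 lay inside the 7-day range. The difference was -1.04 with an SE of 0.522 (adjusted p 0.642). Hamp, which encodes the iron hormone hepcidin, read 12.26, 12.96, 12, 12.87 and 12.90 at 7 days, against 13.08, 13.04, 12.98, 13.12 and 13.17 at 24 h. The groups did not overlap, and the difference was -0.48 with an adjusted p of 0.865, in a fit that estimates the spread over all 10 groups. Haptoglobin (Hp) at -0.09, Crp at -0.03 and Orm1 at -0.10 had 95% intervals that included 0.

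Coagulation and complement genes share several members with the acute phase list. Of 50 measured, 0 passed in limma, and the median was -0.07. With an unadjusted p under 0.05, 10 (20%) were lower and 0 higher, against 3.54% and 4.36% of all genes. The count lower was 3 with arrays centred on their median and 5 without 7-day array 3 or 4.

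The interferon response list ran the other way. Of 50 genes, 0 passed in limma. With an unadjusted p under 0.05, 14 (28%) were higher and 1 (2%) lower, against 4.36% and 3.54% of all genes. 39 lay above 0, as did 42.9% of all genes, and the median was 0.18 in anakinra and 0.09 in vehicle livers. The count higher was 9 and the median 0.10 without 24 h array 3, and the count was 22 without 7-day array 4. Usp18, a protease that removes the ubiquitin-like Isg15 and was chosen after its values were seen, read 9.01, 9.04, 9.21, 7.81 and 8.19 at 7 days, against 8.02, 8.30, 6.92, 7.32 and 7.33 at 24 h. 7-day arrays 1, 2 and 3 stood above all others, and arrays 4 and 5 lay within the 24 h range. The difference was 1.07 (adjusted p 0.279 in limma), while in vehicle livers it was -0.13, and the interaction of 1.21 had an unadjusted p of 0.0136 and an adjusted p of 0.999.

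Lipid synthesis genes held the largest positive difference among the genes named by rule. Scd, the enzyme that makes oleate from stearate, read 13.02, 12.32, 11.21, 12.64 and 12.09 at 7 days, against 11.88, 10.32, 11.29, 11.11 and 9.48 at 24 h. 7-day array 3 alone lay inside the 24 h range. The difference was 1.44 (SE 0.57), or 2.71-fold, with an adjusted p of 0.45 in limma, and in vehicle livers it was 2.11 (0.108).

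Of 33 fatty acid synthesis genes, 0 passed in limma, and 10 (30.3%) were higher and 2 lower with an unadjusted p under 0.05. The shares over all genes were 4.36% higher and 3.54% lower. The median was 0.08, with 0.06 without 7-day array 1 and 0.13 without 24 h array 2 or 7-day array 4. The count higher was 7 without 7-day array 1, 24 h array 2 or 24 h array 3, and 11 in a fit of the 2 groups alone. Fasn, the fatty acid synthase, had 0.19. Tkt, a transketolase of the pentose phosphate pathway chosen after its values were seen, had 10.24, 9.96, 10.11, 10.01 and 10.22 at 7 days, against 10.03, 9.47, 9.49, 9.45 and 9.35 at 24 h, with 24 h array 1 alone inside the 7-day range. The difference was 0.55 (adjusted p 0.111). Tkt is also on the list of NRF2 and oxidative stress genes, where 8 of 42 (19%) were higher and 0 lower with an unadjusted p under 0.05, 0 passed in limma and the median was 0.09. The count higher was 3 without 24 h array 3, 4 without 7-day array 3 and 5 without 24 h array 2.

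Of 22 cholesterol synthesis genes, 0 passed in limma and 0 had an unadjusted p under 0.05, against 7.89% of all genes. 18 lay below 0, as did 57.1% of all genes, with a median of -0.10, and the vehicle median was -0.30. Sqle, squalene epoxidase, differed by -0.40 in anakinra livers, and by -1.11 with a call in vehicle livers (adjusted p 0.036). The citrate carrier Slc13a5 differed by -0.70 (0.549) in anakinra livers and passed in vehicle livers at -1.37 (0.036).

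No drug-metabolising enzyme or carrier on the lists passed between 7 days and 24 h in limma. Of 38 P450 genes of families 1 to 3, 0 passed in limma, and the median was -0.04. With an unadjusted p under 0.05, 1 was higher and 1 lower (2.63% each), against 4.36% and 3.54% of all genes. Cyp1a2, which oxidises caffeine, read 12.11, 12.09, 12.01, 12.18 and 12.28 at 7 days, against 12.22, 12.51, 12.51, 12.28 and 12.46 at 24 h. 7-day array 5 alone reached the 24 h values, and the difference was -0.26 (SE 0.077, adjusted p 0.224).

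Of 51 other phase I enzymes, 0 passed in limma. With an unadjusted p under 0.05, 5 were higher and 5 lower (9.8% each), against 4.36% and 3.54% of all genes. The widest differences among those 10, picked after their values were seen, were 0.99 for the aldehyde reductase Akr7a3 (adjusted p 0.3) and -0.57 for Por, the reductase that passes electrons to P450 enzymes (0.227).

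For Cyp3a2, of the rat CYP3A family, the difference was -0.03 with a 95% interval from -0.19 to 0.13. Cyp2c11 had 0.11, Cyp2e1 -0.13, Cyp2b1 0.19 with an SE of 0.439, and Cyp7a1, the rate-limiting enzyme of bile acid synthesis, -0.08 with an SE of 0.396. Among carriers, the bile salt pump Abcb11 had 0.02, the bile acid uptake carrier Slc10a1 -0.03 and Abcb1a, a P-glycoprotein gene, 0.28. None of these passed in limma. Of 46 conjugating enzymes 5 (10.9%) were higher and 2 (4.35%) lower with an unadjusted p under 0.05. Of 32 uptake carriers 5 (15.6%) were higher and 3 (9.38%) lower. Of 35 ABC efflux transporters 1 was higher and 1 lower (2.86% each). The shares over all genes were 4.36% higher and 3.54% lower, and 0 passed in each of these lists.

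Genes of fasting, stress and growth also gave no call between 7 days and 24 h. Differences were -0.12 for Pck1 of gluconeogenesis, -0.06 for Pdk4, 0.00 for Igfbp1, -0.19 for the hormone Fgf21 and 0.18 for asparagine synthetase (Asns). Fkbp5, a glucocorticoid target, had -0.35 (adjusted p 0.395). Ccnd1 had 0.11, Rrm2 -0.08 and Cdkn1a -0.03.

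Each time point was also set against the sham livers. These comparisons share arrays with the one above, so their values are given side by side. At 7 days 265 genes passed (1.83%), 135 higher and 130 lower, and at 24 h 28 passed (0.193%), 18 higher and 10 lower. With arrays centred on their median the splits were 87 and 62 at 7 days and 1 and 2 at 24 h.

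Both counts moved with single arrays. The 7-day count was 57 without sham array 2, 92 without sham array 5, 130 without sham array 3, 154 without sham array 1, 96 without 7-day array 3 and 69 without 7-day array 4. The 24 h count was 0 without 24 h array 4, 4 without 24 h array 5, 14 without 24 h array 1, and 16, 6, 9 and 5 without sham arrays 1, 2, 3 and 5.

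Some named genes passed at 1 time against sham and some at both. The nuclear clock repressor Cry2 rose by 0.81 at 7 days (adjusted p 0.001) and by 0.60 at 24 h (0.041). Rrm2, a subunit of ribonucleotide reductase, fell by 1.08 at 7 days (0.00119) and by 1.00 at 24 h (0.0189). Bmal2 rose by 0.61 at 7 days (0.024) and differed by -0.32 at 24 h (0.756). Tef differed by -0.08 at 7 days (0.874) and rose by 0.51 at 24 h (0.041). With an array left out, the calls of Cry2 and Rrm2 at 7 days held in 10 of 10 fits each and at 24 h in 2 and 8, that of Bmal2 at 7 days in 5 and that of Tef at 24 h in 2. Whether these differences from sham were unequal is what the test between 7 days and 24 h answers: Bmal2 and Tef passed it, and Cry2 and Rrm2 did not.

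The chaperones named above passed against sham at 7 days. Hsph1 fell by 0.77 (adjusted p 0.0179), Hspa8 by 0.48 (0.0226), Dnajb1 by 0.82 (0.00275) and Bag3, another Hsp70 co-chaperone, by 0.58 (0.0143), and these were the 4 of 41 heat shock genes that passed as lower, as did 0.896% of all genes. They passed in 6, 7, 10 and 8 of 10 fits with an array left out. Bag3 was picked after its values were seen. At 24 h the same genes differed from sham by 0.05, 0.05, -0.38 and -0.13, and none passed. Herpud1 fell by 1.04 at 7 days (0.00812) and differed by -0.23 at 24 h. Derl3 rose by 0.95 at 24 h (0.0435), as did Socs3 by 0.94 (0.041) and Fkbp5 by 0.64 (0.0193). With an array left out these 3 calls at 24 h held in 2, 1 and 5 of 10 fits.

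At the ends of the 7-day comparison with sham were Mybl1, a Myb family transcription factor, which rose by 1.57 (adjusted p 0.000249), and Fam13a, which rose by 1.10 (0.00378). Socs2, the feedback inhibitor of growth hormone signalling, fell by 1.71 (0.0305), Sds, serine dehydratase, by 1.62 (0.0398), and Angptl4, the lipoprotein lipase inhibitor, by 1.44 (0.00812). Mybl1, Fam13a, Angptl4 and Cry2 passed in 10 of 10 fits with an array left out, Socs2 in 3 and Sds in 2. At the ends of the 24 h comparison, beside Derl3 and Socs3, Hsd17b7 of sterol synthesis rose by 0.84 (0.0193), Rrm2 fell as above, and Cytip fell by 1.34 (0.041) and Cdkn3 by 0.82 (0.0383). Hsd17b7 passed in 7, Cytip in 2 and Cdkn3 in 3 of 10 fits with an array left out.

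The change over time also differed between anakinra and EPO livers for 3 genes (0.0207%) by the interaction in limma. Hamp averaged 12.60 at 7 days and 13.08 at 24 h in anakinra livers, against 7.31 at 7 days and 11.01 at 24 h in EPO livers, an interaction of 3.22 (SE 0.615, adjusted p 0.0288). Cd52, a lymphocyte surface antigen, averaged 6.81 at 7 days and 6.63 at 24 h in anakinra livers, against 9.03 and 6.69 in EPO livers (-2.15, SE 0.392, 0.0235). Hemgn, a transcript of erythroid precursors, averaged 6.81 at 7 days and 6.64 at 24 h in anakinra livers, against 9.09 and 6.53 in EPO livers (-2.39, SE 0.473, 0.0359). The mean level of the 34 erythroid transcripts overlapped between the 2 anakinra groups, at 7.41 to 7.97 at 7 days and 7.64 to 7.90 at 24 h. Cd52 passed in 13 of 20 fits with an array left out, Hamp in 7 and Hemgn in 6. The count was 0 without array 1 of any of the 4 groups, without array 5 of EPO at 7 days or 24 h, and without array 5 of anakinra at 24 h, and from 1 to 8 without any other array.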

How the data were processed

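Livers were measured on Affymetrix whole-transcript rat arrays. The deposited log2 values were made by the authors with RMA in the oligo package, per the submitters' processing notes. No version is given in the sources used here. The table held 29214 probes. The platform annotation gave 15310 of them 1 gene symbol, 323 several and 13581 none, and 99.8% of the first matched RefSeq names. The probe with the highest mean stood for each of 14506 genes, and 527 genes had several probes.

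Group means of all 50 arrays were fitted with limma 3.58.1 in R 4.3.3 (lmFit, contrasts, eBayes). P-values were adjusted by Benjamini-Hochberg over 14506 genes, and an adjusted p under 0.05 was a call. The fit and the call rule were tested on simulated data with independent normal noise of equal spread in all groups for each gene. Unequal spread between groups was not simulated. Replicates were separate animals, and their number, 5 per group, limits the precision. Genes were named by rule: all that passed, the next 10 in order of p, 53 fixed genes of which 50 were measured, and up to 6 per other comparison. Others are said to be chosen after their values were seen. The comparison, and with it its member arrays, and the 38 lists were chosen with earlier results of these data known, so the lists are described by counts and medians without a test. Alternatives were array weights, trended and robust eBayes, leaving out the 5 arrays of lowest SD, genes at or above the median level, probe means, centring, quantile normalization, a fit of the compared groups alone, a replicate block, and leaving out each array.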

Additional observations from a re-analysis of the deposited data

Results flagged for a closer look

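Over the 66 genes named between 7 days and 24 h, 132 groups of 5 livers were tested for a liver that stood apart, and 10 gave one by Dixon's criterion of 0.71. Chance gives about 1 in 20 groups, which is 6.6 here. 3 of the 10 came from anakinra 7-day array 2: Orm1 at 12.72 (next liver 12.03), Lcn2 at 10.21 (next 7.52) and Stat3 at 11.29 (next 10.74), which are members of the acute phase list. In the other 7-day livers, Il1b was high in array 5 at 7.27 (next 7.07), Il18 low in array 3 at 6.51 (next 6.69), Per3 high in array 4 at 6.70 (next 6.35) and Alb low in array 5 at 13.93 (next 14.01). In the 24 h livers, Il1r2 was high in array 3 at 5.82 (next 5.56), Hp low in array 2 at 13.21 (next 13.29) and Asns high in array 5 at 8.58 (next 7.31).

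For 3 genes the change between 7 days and 24 h differed between anakinra and EPO livers by limma's interaction: Hamp by 3.22, Cd52 by -2.15 and Hemgn by -2.39. At 7 days Hamp read 7.20, 7.08, 7.46, 7.54 and 7.26 in EPO livers, all below every anakinra liver. Hemgn read 10.02, 8.65, 8.60, 8.77 and 9.41 in those EPO livers.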

How the results depend on the processing

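Array weights gave the largest counts of passed genes in the comparisons of 2 groups. There were 111 between 7 days and 24 h (67 higher, 44 lower, with all 6 shared), 35 between 72 h and 24 h and 10 between 7 days and 72 h. There were 280 for 24 h against sham and 1125 for 7 days against sham (526 higher, 599 lower). Against EPO array weights gave 20, fewer than the fit of the compared groups alone or the replicate block. Without the 5 arrays of lowest SD the counts were 19 between 7 days and 24 h, 1 between 7 days and 72 h, 9 against EPO, 45 for 24 h against sham and 577 for 7 days against sham (252 higher, 325 lower). With genes at or above the median level 3 passed between 7 days and 24 h and 419 for 7 days against sham. Centring gave 2 between 7 days and 24 h, 3 for 24 h against sham and 149 for 7 days against sham. Trended and robust eBayes gave 0 against EPO, and quantile normalization 6 (1 higher, 5 lower). A fit of the compared groups alone gave 12 between 7 days and 24 h, 27 against EPO and 694 for 7 days against sham (298 higher, 396 lower). Leaving out 1 array gave 1 to 8 between 7 days and 24 h, 0 to 1 for anakinra against vehicle over time, 0 to 8 against EPO, 0 to 36 for 24 h against sham and 57 to 280 for 7 days against sham. The cause was not tested. The replicate block gave 10 between 7 days and 24 h (2 shared), 3 between 7 days and 72 h, 27 against EPO, 111 for 24 h against sham and 687 for 7 days against sham (271 higher, 416 lower). The correlations of same-numbered livers were -0.01, 0.14, -0.06, 0.30 and -0.18. The highest correlation of the same 7-day livers with a 24 h liver of another number was 0.33, 0.12, 0.28, 0.09 and 0.41. Whether same-numbered livers share more than a number was not tested. For 66 genes named between 7 days and 24 h, 1118 of 1242 checks kept direction and side of the threshold, 49 lost a call, 36 gained one and 39, in 18 genes, changed sign or came to 0. No value that changed sign passed under the alternative. Crp was 0.017 and Alb 0.00 with quantile normalization, Igfbp1 0.002 with it and 0.007 with centring, and Cdkn1a 0.052 with array weights. With an array left out, the differences between 7 days and 24 h ran from -0.176 to 0.047 for Il1r1, -0.400 to 0.449 for Lcn2, -0.044 to 0.246 for Ccnd1, -0.157 to 0.011 for Rrm2, -0.019 to 0.306 for Fasn and -0.141 to 0.013 for Per2. They ran from -0.168 to 0.502 for Cyp2b1, -0.063 to 0.021 for Cyp3a2, -0.325 to 0.069 for Cyp7a1, -0.038 to 0.055 for Abcb11, -0.193 to 0.193 for Igfbp1 and -0.064 to 0.451 for Asns. For Pck1 the range was -0.219 to 0.099, for Pdk4 -0.189 to 0.044, for Cdkn1a -0.196 to 0.152 and for Alox15 -0.329 to 0.270. For 24 h against sham it was -0.001 to 0.116 for Hsph1 and -0.007 to 0.065 for Apoa5.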

Other observations

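At 72 h after injury 1 anakinra liver carried levels unlike its group in several genes. Array 4 read 8.43 for Hemgn (6.01 to 6.87 in the other 4), 8.12 for Cd52 (6.36 to 6.82), 11.21 for Alox15 (6.78 to 8.46), 9.38 for Lcn2 (6.85 to 8.30) and 10.72 for Hamp (11.61 to 12.95). These genes were chosen after their values were seen. Among 13904 probes with no single gene symbol, 0 passed between 7 days and 24 h in limma and 834 had an unadjusted p under 0.05.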
